A study of Rattus norvegicus with 6 samples.

Results

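The enzymes of glycolysis and of the citric acid cycle were examined in retinal ganglion cells, the output neurons of the retina. The cells came from 3 rats, all adult males of the Brown Norway strain. The set was a list of 31 enzyme genes, and a gene counted as measured where a non-control probe set carried its symbol and no other. This gave 28 of the 31 genes on 39 probe sets, out of 14217 genes so measured on the array, and the brightest probe set stood for each gene. Gapdh was covered only by Affymetrix control probe sets, the probe set annotated to Pkm carried several symbols and was not used, and Dlat had no probe set with its symbol. Of the measured genes, 15 (of 17 listed) act in cytosolic glycolysis and 12 (of 13 listed) in mitochondria, where they form the pyruvate dehydrogenase complex or the cycle. Mdh1, the cytosolic malate dehydrogenase, was kept apart.

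In each rat, injecting hypertonic saline into an episcleral vein had raised the pressure of 1 eye, a glaucoma model, and both eyes were taken after 10 days of raised pressure, the untreated one as control. Both eyes had received Fluorogold from the superior colliculus to mark ganglion cells, and 2000 cells per eye were laser-captured, pooled into 1 amplified RNA and hybridised to 1 array. The arrays fall into OS (left eye, n = 3, rats 1 to 3) and OD (right eye, n = 3, the same rats). Which eye had raised pressure is not given in the labels, so every difference below is OS minus OD within a rat and cannot be read as raised against normal pressure. The question of the design, how ganglion cells of an eye with raised pressure differ from those of the fellow eye, can therefore be read here only as a difference between left and right. Of 10 ganglion cell markers, 7 were above background on all 6 arrays, and both arrays of rat 2 had fewer probe sets above background than those of the other rats (values below).

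Glycolysis splits glucose into pyruvate in the cytosol, with a net yield of ATP, and lactate dehydrogenase interconverts pyruvate and lactate. Pyruvate that enters mitochondria is turned into acetyl-CoA by the pyruvate dehydrogenase complex, and the citric acid cycle oxidises the acetyl group and passes its electrons to the respiratory chain. The retina is known for a high rate of glycolysis even in oxygen, and ganglion cells, with long axons that are unmyelinated inside the eye, depend heavily on mitochondrial ATP.

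Across the 28 genes, 10 were lower in OS in 3 of 3 rats and 2 were higher in 3 of 3, while 16 went different ways in different rats. Over all 14217 genes measured, 13.8% were lower and 14.0% were higher in all 3 rats. The 10 lower genes were 5 of the 15 glycolytic ones (Pfkm, Aldoa, Aldoc, Pgam1 and Eno2) and 5 of the 12 mitochondrial ones (Pdha1, Idh3a, Idh3b, Idh3g and Suclg1). The 2 higher genes were Hk2 and Ogdh. In a limma fit of log2(intensity + 16) with rat as a block, 0 of the 26 members tested passed an adjusted p of 0.05, the smallest being 0.32 for Eno2. Of all 15521 probe sets tested, 0.0129% passed. At an unadjusted p under 0.05 there were 6 members lower in OS (Pfkm, Aldoc, Pgam1, Eno2, Idh3a and Idh3b) and 0 higher, where 5.20% of the 8594 genes tested were lower and 1.73% higher. The limma p-values use a variance drawn largely from other probe sets (19.4 prior against 2 residual degrees of freedom). They therefore do not measure the spread over 3 rats that is printed below as SD. For Pfkm and Idh3b that SD (2.35 and 2.40) was larger in size than the mean difference (-1.74 and -2.21). Since cells were pooled per eye, fewer cells of a type and less RNA per cell cannot be told apart in these values. Ogdh and Mdh2 were too dim to be tested, since only probe sets at or above the median brightness entered the fit.

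**Figure D1:**
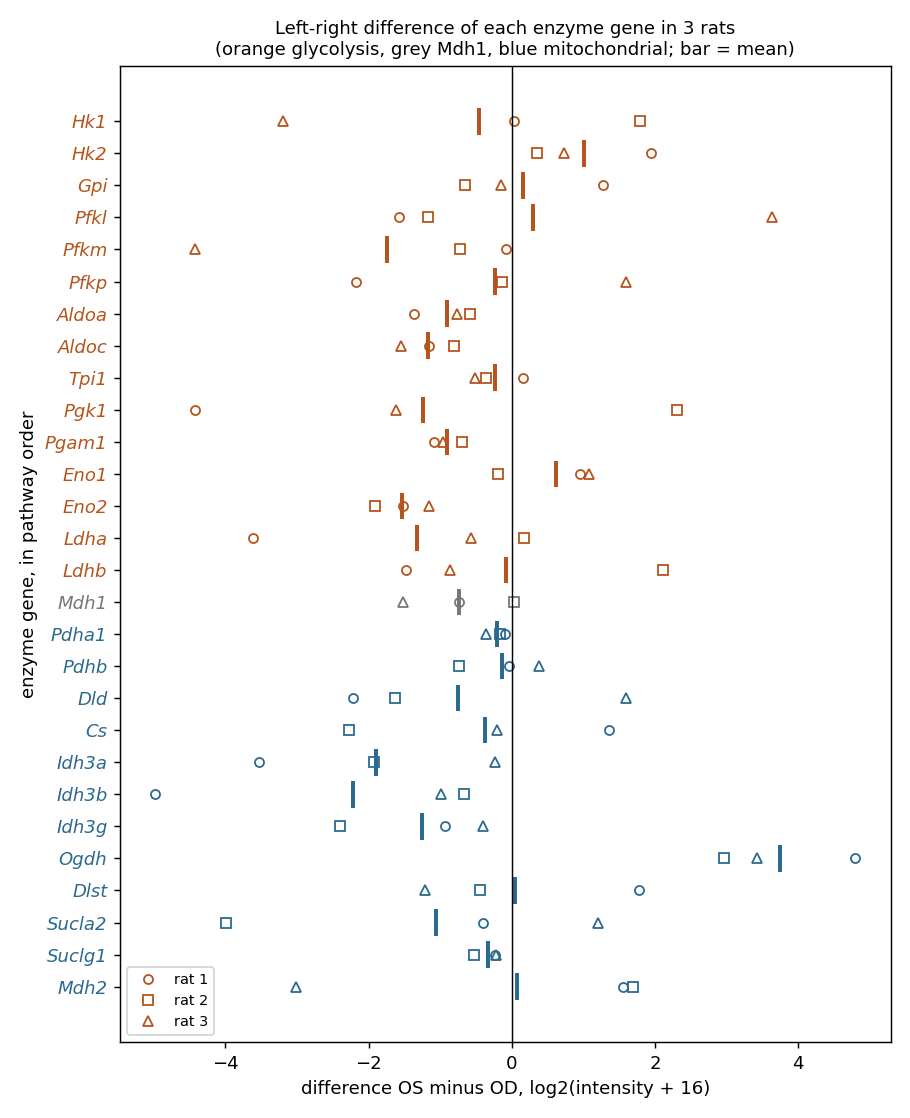
Within-rat difference (OS minus OD, log2 scale) of each of the 28 enzyme genes, in pathway order from the top, with a circle, square and triangle for rats 1, 2 and 3 and a bar for the mean of the 3. Aldoa, Aldoc, Pgam1 and Eno2 lie left of 0 with the rats close together, the 3 Idh3 subunits lie left of 0 with the rats far apart, and Ogdh lies right of 0, at a mean of 3.74.

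The 3 members above background on all 6 arrays and lower in OS in every rat, Eno2, Aldoc and Pgam1, act at steps from aldolase to enolase. Eno2 encodes the neuron-enriched enolase, which makes phosphoenolpyruvate. Its intensity was 2052.2, 770.6 and 3824.1 in OS of rats 1, 2 and 3, against 5911.5, 2947.2 and 8568.4 in OD. Every OS array lay below the OD array of the same rat and all 6 lay above background, although the groups overlapped across rats. The log2 difference was -1.53 ± 0.38 (SD, n = 3 rats, limma adjusted p = 0.32, unadjusted p = 0.00173), or 2.89-fold higher in OD. Background was judged on each array by the 95th percentile of 27 probe sets for Bacillus subtilis RNAs, which lay at 399.6, 546.6 and 409.2 in OS and at 260.5, 590.8 and 292.9 in OD of rats 1 to 3. In OS these limits lay above the median probe set value (369.5, 353.65 and 357), as in OD of rat 2 (367.65). A value below the limit therefore does not show that a transcript was absent. In rats 1 and 3 the limit was higher in OS than in OD.

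Aldoc encodes the aldolase isoform enriched in brain and retina, which splits fructose bisphosphate. It stood at 3916.0, 2947.0 and 5378.4 in OS of rats 1 to 3, against 8791.9, 5192.8 and 15722.9 in OD. Every rat again had the lower value in OS, with a difference of -1.17 ± 0.37 (limma adjusted p = 0.521, unadjusted p = 0.00846). Pgam1, a phosphoglycerate mutase gene, had 5440.4, 3304.1 and 9550.2 in OS and 11524.8, 5352.2 and 18626.0 in OD. It had the smallest spread among the members with a mean difference of at least 0.5 in size, at -0.91 ± 0.20 (limma adjusted p = 0.672, unadjusted p = 0.0331). Aldoa, the broadly expressed aldolase, had 670.1, 471.1 and 2327.4 in OS and 1752.4, 716.5 and 3991.2 in OD, a difference of -0.91 ± 0.41 (limma adjusted p = 0.781). Its OS array of rat 2 did not exceed that array's background limit.

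**Figure D2:**
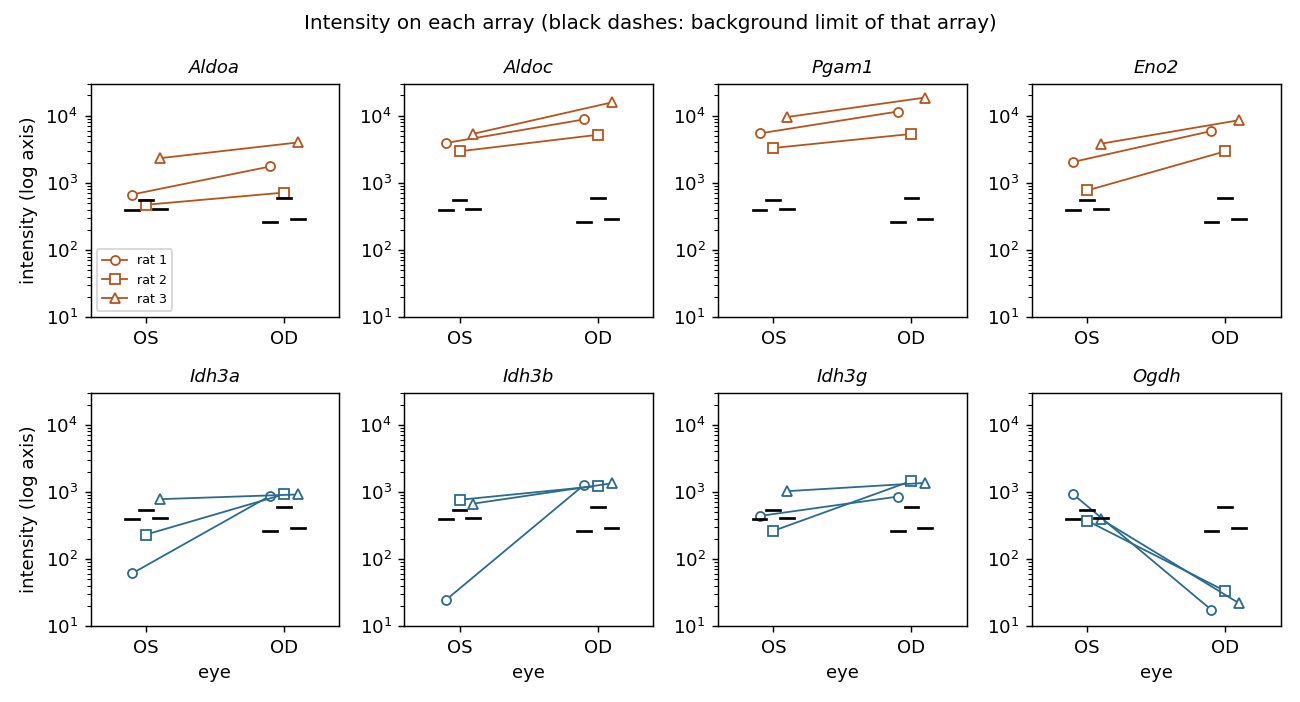
Intensity (log axis) of 8 enzyme genes on each array, with OS left of OD, a line joining the eyes of a rat, and a black dash at each array's background limit. Aldoc, Pgam1 and Eno2 exceed the limit on all 6 arrays and every line is higher in OD, Idh3a and Idh3b have all 3 OS values below all 3 OD values, and Ogdh has all 3 OD values below the limit.

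The upstream sequences of these genes are shown because the Eno2, Aldoc and Pgam1 transcripts were lower in OS in every rat, though none passed the adjusted threshold, because the Idh3 subunits and Ogdh described further on lay on opposite sides, and because many glycolytic promoters are known to carry the core of the hypoxia response element. Windows of 300 bases around annotated starts were taken from RefSeq (build GRCr8), 5′ to 3′ on the gene's strand, for 14 of the 15 glycolytic and 11 of the 12 mitochondrial genes. Capitals mark ACGTG or GCGTG on either strand (CACGT or CACGC when read on the strand shown). They run over chr4:159267171-159267470 (minus strand) for Eno2, chr10:63715294-63715593 (plus strand) for Aldoc and chr1:250672902-250673201 (plus strand) for Pgam1. For subunits of isocitrate dehydrogenase they run over chr3:137939941-137940240 (minus strand) for Idh3b and chrX:156675433-156675732 (minus strand) for Idh3g, and for Ogdh over chr14:85363781-85364080 (plus strand).
Eno2: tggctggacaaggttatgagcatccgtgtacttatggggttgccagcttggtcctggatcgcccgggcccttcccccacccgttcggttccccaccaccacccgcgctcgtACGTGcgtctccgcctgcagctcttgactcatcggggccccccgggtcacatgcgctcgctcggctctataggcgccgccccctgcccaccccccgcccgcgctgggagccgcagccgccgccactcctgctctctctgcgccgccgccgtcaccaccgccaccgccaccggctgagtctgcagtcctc
Aldoc: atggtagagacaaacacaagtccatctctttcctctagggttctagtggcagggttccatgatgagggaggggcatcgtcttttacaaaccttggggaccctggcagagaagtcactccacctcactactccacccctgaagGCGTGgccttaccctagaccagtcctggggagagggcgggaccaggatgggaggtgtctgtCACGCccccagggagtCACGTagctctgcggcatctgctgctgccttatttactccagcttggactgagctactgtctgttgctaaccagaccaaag
Pgam1: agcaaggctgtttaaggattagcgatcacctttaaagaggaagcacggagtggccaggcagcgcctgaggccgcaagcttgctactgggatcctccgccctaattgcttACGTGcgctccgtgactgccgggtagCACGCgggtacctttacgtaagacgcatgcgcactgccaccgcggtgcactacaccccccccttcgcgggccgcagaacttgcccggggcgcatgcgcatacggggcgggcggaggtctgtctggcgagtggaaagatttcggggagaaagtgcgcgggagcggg
Idh3b: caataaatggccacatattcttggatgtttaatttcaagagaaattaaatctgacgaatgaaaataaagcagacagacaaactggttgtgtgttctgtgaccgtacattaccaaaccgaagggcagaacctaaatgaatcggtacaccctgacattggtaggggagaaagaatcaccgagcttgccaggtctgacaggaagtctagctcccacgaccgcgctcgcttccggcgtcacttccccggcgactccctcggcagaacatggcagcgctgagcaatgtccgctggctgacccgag
Idh3g: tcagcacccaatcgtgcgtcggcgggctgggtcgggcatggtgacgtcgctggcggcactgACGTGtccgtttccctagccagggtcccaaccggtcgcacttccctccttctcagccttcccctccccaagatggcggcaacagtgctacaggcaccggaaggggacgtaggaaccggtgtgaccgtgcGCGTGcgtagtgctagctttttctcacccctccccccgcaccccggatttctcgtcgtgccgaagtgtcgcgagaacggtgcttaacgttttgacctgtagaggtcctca
Ogdh: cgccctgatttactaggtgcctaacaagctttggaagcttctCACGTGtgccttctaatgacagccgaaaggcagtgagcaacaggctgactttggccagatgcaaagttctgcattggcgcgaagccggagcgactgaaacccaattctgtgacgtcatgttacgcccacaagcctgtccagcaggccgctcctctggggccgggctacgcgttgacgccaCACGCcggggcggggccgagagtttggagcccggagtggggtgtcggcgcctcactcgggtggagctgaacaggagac

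ACGTG occurred on either strand in 9 of the 14 glycolytic and in 3 of the 11 mitochondrial genes with a window, against 25.1% of 11700 genes on the array with one. GCGTG occurred in 7 of 14 and 6 of 11, against 46.9%. The E-box CACGTG, which holds ACGTG on both strands, occurred in 1 of 14 and 2 of 11, against 9.4%. Where a gene had several annotated starts, a motif in any of its windows counted. These are matches of letters only. Either ACGTG or GCGTG occurred in 12 of 14 and 6 of 11, against 59.1%. Genes with either motif included Eno2, Aldoc and Pgam1, lower in OS in 3 of 3 rats, Ldha and Gpi, mixed between rats, and Ogdh, higher in 3 of 3.

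Tpi1, Pgk1 and Eno1, which also act at steps from aldolase to enolase, did not share the pattern. Tpi1, which encodes triosephosphate isomerase, differed by -0.24 ± 0.36, with rat 1 slightly higher in OS. Eno2 and Tpi1 are near neighbours on chromosome 4 (159258371 to 159267220 and 159301558 to 159305088 in GRCr8). Pgk1, the phosphoglycerate kinase gene, had 174.1, 1508.4 and 1862.7 in OS and 4050.1, 290.8 and 5714.4 in OD. Rats 1 and 3 were lower in OS and rat 2 was higher (-1.24 ± 3.38, limma adjusted p = 0.799). Without rat 2, Pgk1 was the 1 member past the threshold (limma adjusted p = 0.0147), in a fit where 0.380% of the 15521 probe sets passed. Its OS array of rat 1 and its OD array of rat 2 lay below background. The size of its difference in rat 1, which that fit kept, is therefore not measured. In rat 2 itself the other probe sets of Pgk1 were lower in OS, by -4.08 and -0.61, against 2.31 on the brightest one, although they were dim. Eno1, the broadly expressed enolase, had 410.0, 150.3 and 586.8 in OS, against 203.8, 173.6 and 268.9 in OD, and all 3 OD values lay below background. It differed by 0.62 ± 0.70 (limma adjusted p = 0.931), in the direction opposite to Eno2.

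Gapdh could be followed only on control probe sets, which were kept out of the fit. The 3′ probe set read 1777.5, 1844.9 and 1088.0 in OS and 1405.0, 1099.4 and 1229.7 in OD, above background on all 6 arrays, and differed by 0.30 ± 0.46. Rats 1 and 2 were higher and rat 3 lower in OS, so this glycolytic dehydrogenase did not show the difference seen for Eno2, Aldoc and Pgam1. The middle (0.08 ± 1.38) and 5′ (0.76 ± 1.43) probe sets varied more.

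The first steps of glycolysis, from hexokinase to phosphofructokinase, had a median difference of -0.04 over 6 genes, against -0.91 over the 7 genes from aldolase to enolase. This split of the pathway was made after the values were seen. Hk1, the main hexokinase of neurons, had 759.6, 616.6 and 78.8 in OS and 742.7, 166.9 and 849.1 in OD on its brightest probe set (-0.46 ± 2.53). Its other probe set was higher in OS in 3 of 3 rats, with 1060.8, 859.1 and 343.5 in OS against 272.4, 181.3 and 62.9 in OD (2.08 ± 0.16, limma adjusted p = 0.721, unadjusted p = 0.0496). That probe set exceeded background on 2 of 3 OS and 1 of 3 OD arrays, and in neither eye of rat 3. The brightest one exceeded it on 2 of 3 arrays in each group. The 2 probe sets of Hk1 thus disagreed in direction, at sizes that are not well measured, and averaging them gave 0.81. Hk2, the inducible hexokinase, had 386.8, 405.2 and 807.8 in OS and 89.0, 314.4 and 481.7 in OD. It was higher in OS in every rat (1.01 ± 0.83, limma adjusted p = 0.856), but exceeded background on only 1 of 3 arrays in each group.

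Gpi, which encodes glucose-6-phosphate isomerase, was above background on all 6 arrays and differed by 0.16 ± 1.0. The 3 phosphofructokinase genes, whose products catalyse the committed step, went different ways. Pfkm (muscle type) had 1380.8, 1108.3 and 30.8 in OS and 1461.2, 1835.5 and 989.8 in OD, and its -1.74 ± 2.35 (limma adjusted p = 0.672) rested on rat 3, without which it was -0.40. Its OS array of rat 3 lay below background, so the size of this difference is not measured. The dimmer probe sets of Pfkm differed by -0.92 ± 2.13 and -0.06 ± 1.48, with -0.03 and 1.24 in rat 3. Averaging all its probe sets gave -0.91. Pfkl (liver type) had 281.2, 588.1 and 653.4 in OS and 874.7, 1341.3 and 37.8 in OD. It was lower in OS in rats 1 and 2 and much higher in rat 3 (0.30 ± 2.90), but OS of rat 1 and OD of rat 3 lay below background. Pfkp (platelet type) had 866.5, 1560.9 and 1932.3 in OS and 3944.8, 1718.2 and 631.9 in OD, all above background, and differed by -0.24 ± 1.88.

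Lactate dehydrogenase is built from the products of Ldha and Ldhb. Ldha had 47.8, 611.4 and 500.1 in OS and 760.5, 540.0 and 752.0 in OD (-1.33 ± 2.0, limma adjusted p = 0.802), and without rat 1 the difference was -0.20. Ldhb had 876.2, 2069.3 and 1020.7 in OS and 2477.4, 465.6 and 1869.1 in OD (-0.08 ± 1.92). Both were lower in OS in rats 1 and 3 and higher in rat 2. Ldha lay below background on OS of rat 1 and OD of rat 2, and Ldhb on OD of rat 2.

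Whether isoforms differed from each other was tested on the 3 within-rat differences, over 7 isoform pairs. The difference of Eno2 was below that of Eno1 by -2.15 ± 0.38 on the log2 scale, in 3 of 3 rats (exact permutation p = 0.25 by flipping signs, two-sided, which is the lowest value possible with 3 rats, and 0.875 after Benjamini-Hochberg adjustment). Aldoc and Aldoa differed by -0.26 ± 0.49 (exact permutation p = 0.5), with rat 1 in the other direction. For the hexokinase, lactate dehydrogenase and phosphofructokinase pairs the exact permutation p lay between 0.5 and 1.0. With 3 rats, no pair could have passed 0.05. Eno1 was not above background on any OD array or on OS of rat 2, so the size of its difference, and of the gap to Eno2, is not measured.

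In mitochondria, the 3 subunit genes of NAD-dependent isocitrate dehydrogenase, a rate-controlling enzyme of the cycle, were each lower in OS in 3 of 3 rats. Idh3a, the catalytic alpha subunit gene, had 61.0, 231.1 and 778.8 in OS and 876.0, 918.8 and 915.9 in OD (-1.89 ± 1.65, limma adjusted p = 0.694, unadjusted p = 0.0393). Idh3b, the beta subunit gene, had 24.5, 762.9 and 669.0 in OS and 1264.4, 1220.3 and 1341.7 in OD (-2.21 ± 2.40, limma adjusted p = 0.59, unadjusted p = 0.0147). Idh3g, the gamma subunit gene, had 437.6, 262.8 and 1025.1 in OS and 851.2, 1457.3 and 1361.6 in OD (-1.25 ± 1.03, limma adjusted p = 0.744). The OD arrays were close to each other for Idh3a and Idh3b, and the spread came from OS.

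Idh3a and Idh3b were the 2 members whose 3 OS arrays all lay below the 3 OD arrays, a pattern of 5.30% of genes measured. Rat 1 set much of their size, with -3.53 for Idh3a and -4.98 for Idh3b, and without it the mean differences were -1.07 and -0.83. For Idh3g it was rat 2, without which the difference was -0.67. In OS, Idh3a exceeded background on 1 of 3 arrays, and Idh3b and Idh3g on 2 of 3, so their sizes are uncertain.

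Ogdh, which encodes the first subunit (E1) of the oxoglutarate dehydrogenase complex, the next enzyme of the cycle, went the other way. It had 917.9, 372.4 and 393.3 in OS and 17.5, 33.4 and 22.0 in OD. All 3 OS arrays were above all 3 OD arrays, as in 5.16% of genes measured, and no other member did this. The log2 difference was 3.74 ± 0.95, but all 3 OD arrays and the OS arrays of rats 2 and 3 lay below background, so only the OS array of rat 1 measured the transcript and the size of the difference is not known. Fitted with no filter on dim probe sets, it had a limma adjusted p of 0.455 (unadjusted p = 0.00307). Dlst, the second subunit gene (E2) of the same complex, differed by 0.04 ± 1.55, and Dld, whose product (E3) is shared with pyruvate dehydrogenase, by -0.75 ± 2.05. The 3 components of this complex thus had no common direction.

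Of the pyruvate dehydrogenase complex, Pdha1, Pdhb and Dld were measured. Pdha1, the E1 alpha subunit gene, was lower in OS in 3 of 3 rats by only -0.21 ± 0.14, and Pdhb, the E1 beta subunit gene, differed by -0.13 ± 0.56 with all 6 arrays above background. Dld, at -0.75 ± 2.05 as given above, was lower in OS in rats 1 and 2 and higher in rat 3. For Pdha1 the rats differed far more than the eyes, with 971.0, 78.3 and 1228.9 in OS and 1043.4, 89.1 and 1583.6 in OD. Rat 2 was below background in both eyes.

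Of the remaining cycle enzymes, the succinyl-CoA ligase alpha subunit gene Suclg1 was lower in 3 of 3 rats by -0.33 ± 0.17, but exceeded background on only 1 of 3 OS arrays. Sucla2, the ATP-forming beta subunit gene, differed by -1.06 ± 2.66. Cs, which encodes citrate synthase, differed by -0.37 ± 1.82 on its brightest probe set, with 3 dimmer probe sets at 0.22, 1.49 and 1.22. The mitochondrial malate dehydrogenase gene Mdh2 differed by 0.08 ± 2.68, and the cytosolic Mdh1 by -0.74 ± 0.77. Over the 7 members with more than 1 probe set, Hk1, Cs and Sucla2 had another probe set with the opposite mean (0.54 for Sucla2).

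Cytosolic glycolysis was then set against the mitochondrial enzymes. The median difference was -0.46 over the 15 glycolytic genes and -0.35 over the 12 mitochondrial genes, against -0.02 over all genes measured and -0.07 over all genes tested. In rats 1, 2 and 3 the glycolytic medians were -1.16, -0.36 and -0.77, and the mitochondrial medians -0.17, -0.70 and -0.23. All 6 medians were below 0, but which compartment was lower changed with the rat: glycolysis in rats 1 and 3, mitochondria in rat 2. The difference between the medians, -0.11, was smaller than its SD over rats of 0.67, and without rat 1 it was 0.34. A mean difference below 0 was found for 11 of 15 glycolytic and 9 of 12 mitochondrial genes. Over all genes it was found for 7208 of 14217 measured and 4612 of 8594 tested. No test was made of either median, because the list was proposed with results of these data known.

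**Figure D3:**
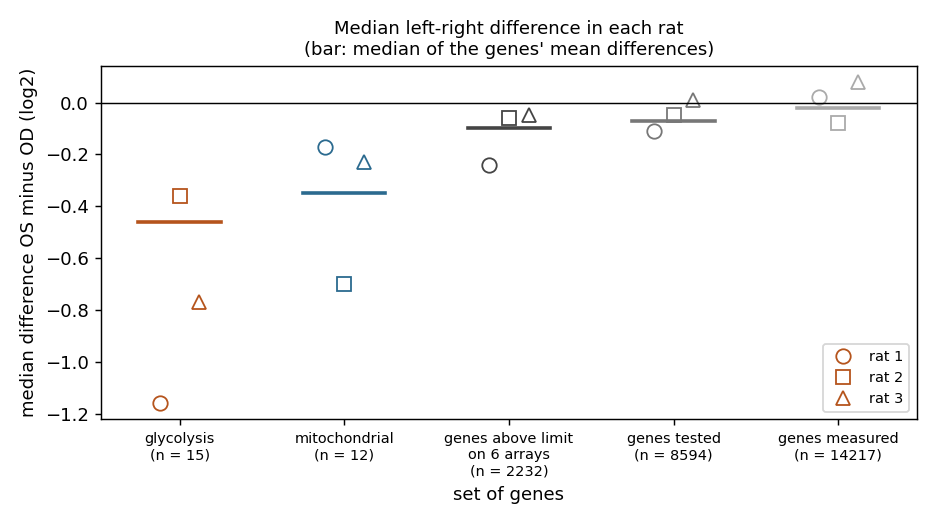
Median difference (OS minus OD, log2 scale) over the genes of each set in rat 1 (circle), rat 2 (square) and rat 3 (triangle), with a bar at the median of the genes' mean differences. The glycolytic medians lie between -1.16 and -0.36 and the mitochondrial ones between -0.70 and -0.17, and the medians of the 3 wider sets lie between -0.24 and 0.08.

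The number of genes measured above background on every array differed by compartment. Over all genes measured, 2232 of 14217 exceeded background on all 6 arrays. Of the 15 glycolytic genes, 6 did (Gpi, Pfkp, Aldoc, Tpi1, Pgam1 and Eno2), and of the 12 mitochondrial genes 1 did (Pdhb). Of these 7, the 3 genes Aldoc, Pgam1 and Eno2 were lower in OS in 3 of 3 rats, where 20.4% of the 2232 genes above background on all arrays were. That share is above the 13.8% of all genes, and the medians of these bright genes were -0.24, -0.06 and -0.05 in rats 1, 2 and 3.

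**Figure D4:**
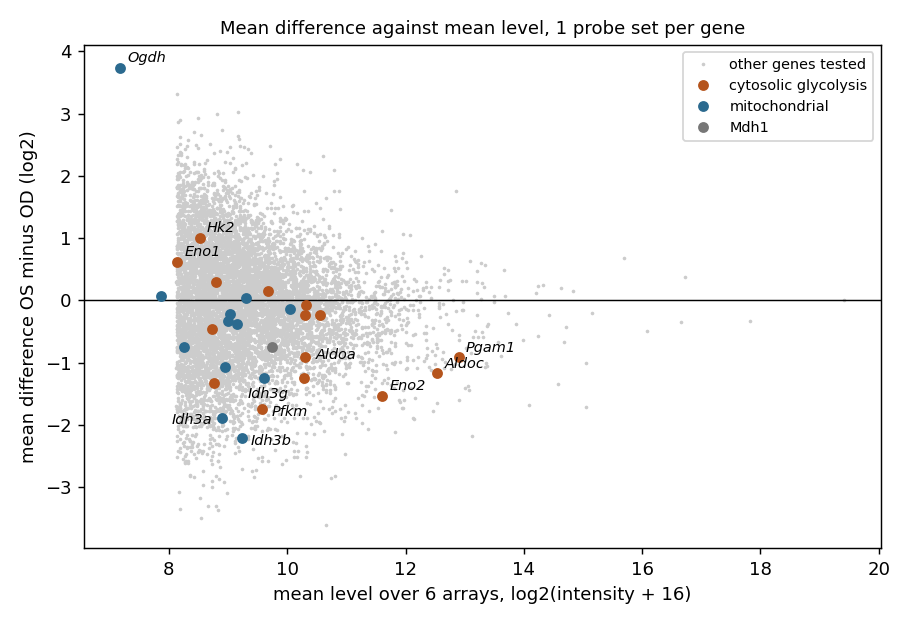
Mean difference (OS minus OD, log2 scale) against mean level over 6 arrays, log2(intensity + 16), for the 28 enzyme genes (coloured) and the other genes tested (grey). Pgam1, Aldoc and Eno2 lie at mean differences of -0.91 to -1.53 where the grey points are narrow, while the Idh3 genes lie among dimmer genes with a wide spread.

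Several enzyme genes had the same order of rats in both eyes. Of these, Aldoa, Aldoc, Tpi1, Pgam1, Eno1 and Eno2 were highest in rat 3 and lowest in rat 2, as was Pdha1, which makes 7 of the 28 members. The share of all genes measured with this order was not computed, so that count has nothing to be set against. Pgk1, with its lowest OS value in rat 1, and the 3′ Gapdh control, with its lowest OS value in rat 3, did not have this order, and Eno1 was below background on 4 of 6 arrays. Among the 7 members above background on all arrays, 4 (Aldoc, Tpi1, Pgam1 and Eno2) had this order, compared with 8.83% of the genes above background on all arrays. This order was noticed after the values were seen. The arrays of rat 2 had the fewest probe sets above background, 34.9% in OS and 34.8% in OD, against 45.5% to 47.6% in OS and 52.1% to 58.1% in OD of the other rats, and the part of this in the order was not tested. Rat 2 also had the highest background limits, 546.6 in OS and 590.8 in OD.

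Other genes of glucose metabolism, from lists drawn up alongside the members, showed no common direction, and 0 passed the adjusted threshold. Of 16 other glycolytic isoforms and regulators, 2 were lower and 3 higher in OS in 3 of 3 rats, with Bpgm, the bisphosphoglycerate mutase gene, at -1.55 ± 0.97 (limma adjusted p = 0.733). Bpgm exceeded background on only 1 of 3 OS arrays. Of 26 other pyruvate dehydrogenase and cycle genes, 3 were lower and 5 higher. Idh1, the cytosolic NADP-dependent isocitrate dehydrogenase gene, had 131.4, 862.1 and 710.3 in OS and 1773.8, 990.7 and 2577.0 in OD (-1.88 ± 1.70, limma adjusted p = 0.562, unadjusted p = 0.0109). The mitochondrial NADP-dependent Idh2, by contrast, differed by -0.08 ± 0.50.

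Among 8 glucose and lactate transporter genes, 2 were lower and 2 higher in 3 of 3 rats, and the median difference was -0.02. The higher ones were Slc2a4 (1.15 ± 0.87) and Slc16a7 (1.03 ± 0.43), each above background on 1 of 3 arrays in each group. The lower ones were the main glucose transporters of the blood-retina barrier and of neurons: Slc2a1 (GLUT1) had 67.4, 407.9 and 527.7 in OS and 664.7, 1014.6 and 1099.3 in OD (-1.78 ± 1.09, limma adjusted p = 0.697), and Slc2a3 (GLUT3) differed by -0.87 ± 0.43. Slc2a1 was above background on 1 of 3 OS arrays. Of 16 hypoxia and metabolic regulators, 2 were lower and 3 higher in 3 of 3 rats. Vhl, whose product marks HIF-alpha proteins for breakdown, differed by -2.15 ± 1.92 (limma adjusted p = 0.721), but exceeded background on only 1 of 3 OS arrays. Nrf1, a regulator of genes for mitochondrial proteins, differed by 0.95 ± 0.41 (limma adjusted p = 0.771) with all 6 arrays above background. Redox shuttle genes (1 lower, 1 higher of 7), pentose phosphate genes (1 and 0 of 6) and creatine and adenylate kinases (1 and 2 of 4) were as mixed.

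Cell type markers moved between the eyes as well. Of the 10 ganglion cell markers, 9 had the lower mean on the OS side, with 6 lower in 3 of 3 rats. Their summed intensity ran from 12523 to 16985 in OS and from 21949 to 30539 in OD, with no overlap. Nefh, the heavy neurofilament gene, had 2613.2, 1619.5 and 2309.2 in OS and 8146.1, 6394.1 and 6879.3 in OD (-1.72 ± 0.22, limma adjusted p = 0.242). Summed amacrine markers (6 of 6 measured, 5 with a lower mean in OS) ran from 9221 to 20475 in OS and from 20741 to 60444 in OD, and pigment epithelium markers (4 of 4, all lower in the mean) from 1806 to 3124 and from 5075 to 17931. For both lists the OS and OD ranges did not overlap. These sums were weighted towards the brightest genes. In OD of rat 3, Gad1 read 25386.2 and Calb2 24082.0 of the amacrine sum of 60444, and Tyrp1 10420.0 of the pigment epithelium sum of 17931. Over all 14217 genes measured, 7208 had a mean below 0 and 13.8% were lower in OS in 3 of 3 rats. All 3 OS arrays lay below all 3 OD arrays in 5.30% of these genes, and no such share was computed for sums.

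Sums overlapped between OS and OD for photoreceptor (8801 to 23779 in OS, 9653 to 36773 in OD, 3 of 7 lower), Mueller glia and astrocyte (6321 to 11246 in OS, 5954 to 18655 in OD, 4 of 6 lower), microglia (1759 to 3863 in OS, 1099 to 3352 in OD, 2 of 7 lower), bipolar (1453 to 2279 in OS, 1216 to 2184 in OD, 0 of 3 lower) and vessel and blood markers (257 to 707 in OS, 173 to 930 in OD, 1 of 2 lower). No microglial marker and no pigment epithelium marker exceeded background on all 6 arrays. The beta-actin control read relatively more at its 3′ than its 5′ end in OS, by 1.32 ± 0.52 on the log2 scale in 3 of 3 rats, and Gapdh by -0.46 ± 1.86. The 5′ beta-actin probe set exceeded background on only 2 of 6 arrays and the 3′ one on 5 of 6, so this ratio is not well measured. The part of cell mixture or RNA quality in the enzyme differences was not tested.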

How the data were processed

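Affymetrix arrays of RNA from laser-captured retinal ganglion cells, 1 per eye of 3 rats, were used. The authors deposited 1 linear intensity for each probe set. Per the submitters' processing notes, GCOS was used (version: not given in the sources used here). A trimmed mean (2% off each end) equalled 500.1 on each array, so they were taken as globally scaled; a difference in total RNA between eyes is not seen in such values. The precision is limited by 3 rats. Of 31099 probe sets, 57 controls were left out. Symbols came from the platform annotation, and only probe sets with 1 symbol were named.

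An offset of 16 was added before log2. The brighter 15521 probe sets (mean log2 no lower than the median) entered a limma fit (limma 3.58.1, R 4.3.3). The fit took rat as a fixed block and eBayes with intensity trend, two-sided, with Benjamini-Hochberg over all tested and a threshold of 0.05. On simulated data with normal noise it was checked only for recovering the size of differences, not for false calls. The 2 eyes of a rat pair by the titles, and their deviations from the group means correlated at 0.109, 0.122 and 0.326 (Pearson's r over probe sets, rats 1 to 3). Residual degrees of freedom were 2, with 19.4 added by the prior. Alternatives covered offset, normalization, filter, block, trend, rats left out and the probe set per gene. Array values were printed for members with 1 direction in 3 rats and a mean of at least 0.5, and for isoform sets. Pgk1, Pdha1 and the other probe set of Hk1 were added after their values were seen. From the other lists came up to 2 genes of smallest unadjusted p, plus Idh2, Slc2a4 and Slc16a7. The members and lists were chosen with earlier results of these data known.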

Additional observations from a re-analysis of the deposited data

Results flagged for a closer look

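Gapdh was outside the fit because its single-symbol probe sets are array controls. Its 3′ control probe set was nevertheless brighter than background on each of the 6 arrays, down to 1088.0 in OS of rat 3. Groups of 3 arrays are too small for a search for outlying samples.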

How the results depend on the processing

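The number of members past the adjusted threshold was 0 under every setting run except without rat 2, where it was 1 (Pgk1; range 0 to 1 with a rat left out). The count over all probe sets was 2, and became 0 with an offset of 1, after quantile normalization, with the filter at the 75th percentile or at the background limit, without the intensity trend, with no replicate block and with a random replicate block. It became 8 with an offset of 64, 9 with no filter and 18 to 59 with a rat left out. With no replicate block the smallest adjusted p of a member was 0.953 and 1 member, against 6, had an unadjusted p under 0.05. That number was 4 with the stricter filters and with the random block, and 3 without the trend.

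The glycolytic median was -0.91 among members passing either stricter filter and ran from -1.07 to -0.40 with a rat left out, and was -0.24 with each gene's probe sets averaged. The mitochondrial median then ran from -0.74 to -0.23 and their difference from -0.84 to 0.34. That difference was 0.10 among members tested only and 0.0 with the Gapdh control included. Members lower in all remaining rats numbered 7 to 8 for glycolysis and 5 to 8 for mitochondria, which fewer rats must raise; this count was added after seeing the data, and quantile normalization lowered it to 4 for glycolysis.

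A change of filter, block or trend, or adding the controls, leaves a member's difference unchanged and can alter only its call. Members not given by array were added after seeing the data. Over all 28 members, 375 of 392 alternative values, those settings included, kept direction and call, and 16 turned sign. These were in Hk1 at 0.81 with its probe sets averaged and -1.58 to 0.91 with a rat left out, Ldhb at 0.04 after quantile normalization and -1.17 to 0.63, Pfkl at -1.38 to 1.23, Pfkp at -1.15 to 0.73, Pgk1 at -3.01 to 0.35, Gpi at -0.40 to 0.56, Pdhb at -0.38 to 0.17, Cs at 0.64 with probe sets averaged and -1.23 to 0.58, Dlst at -0.83 to 0.66, Sucla2 at -2.19 to 0.40 and Mdh2 at -0.73 to 1.62. The cause was not tested.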
